A study of Mus musculus with 7 samples.

Results

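The genes described here encode the machinery that brings proteins into mitochondria and folds them there. They were taken by symbol: every gene whose name starts with Timm or Tomm and a digit, together with Pam16, Dnajc19, Samm50, Mtx1, Mtx2, Chchd4, Hspa9, Grpel1, Grpel2, Pmpca, Pmpcb, Hspd1 and Hspe1. Of 23284 gene rows, 35 matched, and 34 held at least 10 reads over the 7 libraries. Timm8a2 was left out with 6 reads in all, and Tomm20l was kept but was too low to be tested, so 33 genes were tested.

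Expression was measured by RNA-seq in atrioventricular canals, the short stretch of heart tube that joins atrium and ventricle and in which valves form. The embryos came from outbred NMRI mice at stage E9.0-E9.25 with 18 to 23 somites, although the sample titles read e9.5. The 4 null libraries carried on both alleles a germline deletion of the whole coding region of Hand2, a transcription factor gene of heart development, and the 3 others were wild type. Each library was a pool of 4 hand-dissected canals matched on somite stage and sex ratio, so it holds muscle, endocardium and other cells together, and the deletion was present in every cell of the embryo from fertilisation. Of 4 pools prepared per genotype, 1 wild-type pool was dropped before sequencing for poor RNA, and the others had RNA integrity numbers of at least 8.5. The labels do not say whether pools of a group came from separate litters, so the p-values measure the spread between pools.

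Most mitochondrial proteins are encoded in the nucleus, made in the cytosol and imported. Precursors enter through the TOM complex of the outer membrane and are then sorted: barrel proteins to the SAM complex, small cysteine-rich proteins to the oxidising relay of the intermembrane space, carriers to the TIM22 translocase, and proteins with a presequence to the TIM23 translocase. An ATP-driven motor pulls the last group into the matrix, where a peptidase removes the presequence and the HSP60 and HSP10 chaperonin helps folding. Heart muscle is rich in mitochondria, and inherited defects of the import proteins DNAJC19 and TIMM8A cause disease in humans.

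Reads in genes numbered 27905601 to 44860753 per library, so the detection floor, taken as 3 reads, was at 0.0669 to 0.108 CPM (counts-per-million units, relative to reads in genes). Such floors cover counting error only, since amplified reads without molecular identifiers are not independent molecules. Hand2 stood at 0.187 to 0.792 CPM in null and 42.3 to 47.3 CPM in wild-type libraries. The share of reads that aligned to several places was lower in null libraries, at 9.08% to 11.64% against 12.22% to 13.81%. Reads in genes with transcripts shorter than 1000 nt made up 15.7% to 19.1% of null and 19.5% to 21.2% of wild-type libraries. Heart muscle genes were abundant in every library, with a summed level of 31067 to 38355 CPM over 8 genes. They mark heart muscle and do not tell the canal from the chambers.

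Import and chaperone transcripts were lower in the null canals than in wild type for most of the machinery, by modest amounts. Of the 33 genes tested, 30 had a negative log2 fold change of null over wild type and 3 a positive one. Their median was -0.39, with a range from -0.80 to 0.50, whereas the median of all 14290 tested genes was 0.02, with 47.7% of them negative. By edgeR's quasi-likelihood test with an adjusted p under 0.05, 5 of the 33 fell: Hspe1, Timm10, Tomm5, Timm13 and Chchd4. This is 15.2% of them, beside 2.13% of all tested genes called lower. In a bulk sample, fewer cells of a type that is rich in these transcripts and less of the RNA per cell cannot be told apart.

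No import or chaperone gene rose, where 4.11% of all tested genes were called higher. DESeq2 called 0 of them higher as well, against 7.39% of its genes, and 0 had an unadjusted edgeR p under 0.05 with a higher level in null, against 13.5% of all tested genes. In the other direction 20 of the 33, or 60.6%, had an unadjusted p under 0.05, against 10.9% of all tested genes. The CPM of every null library lay below that of every wild-type library for 20 of the 33, against 10.3% of all tested genes. The reverse arrangement was found for 0 of the 33, against 11.6% of all tested genes.

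**Figure D1:**
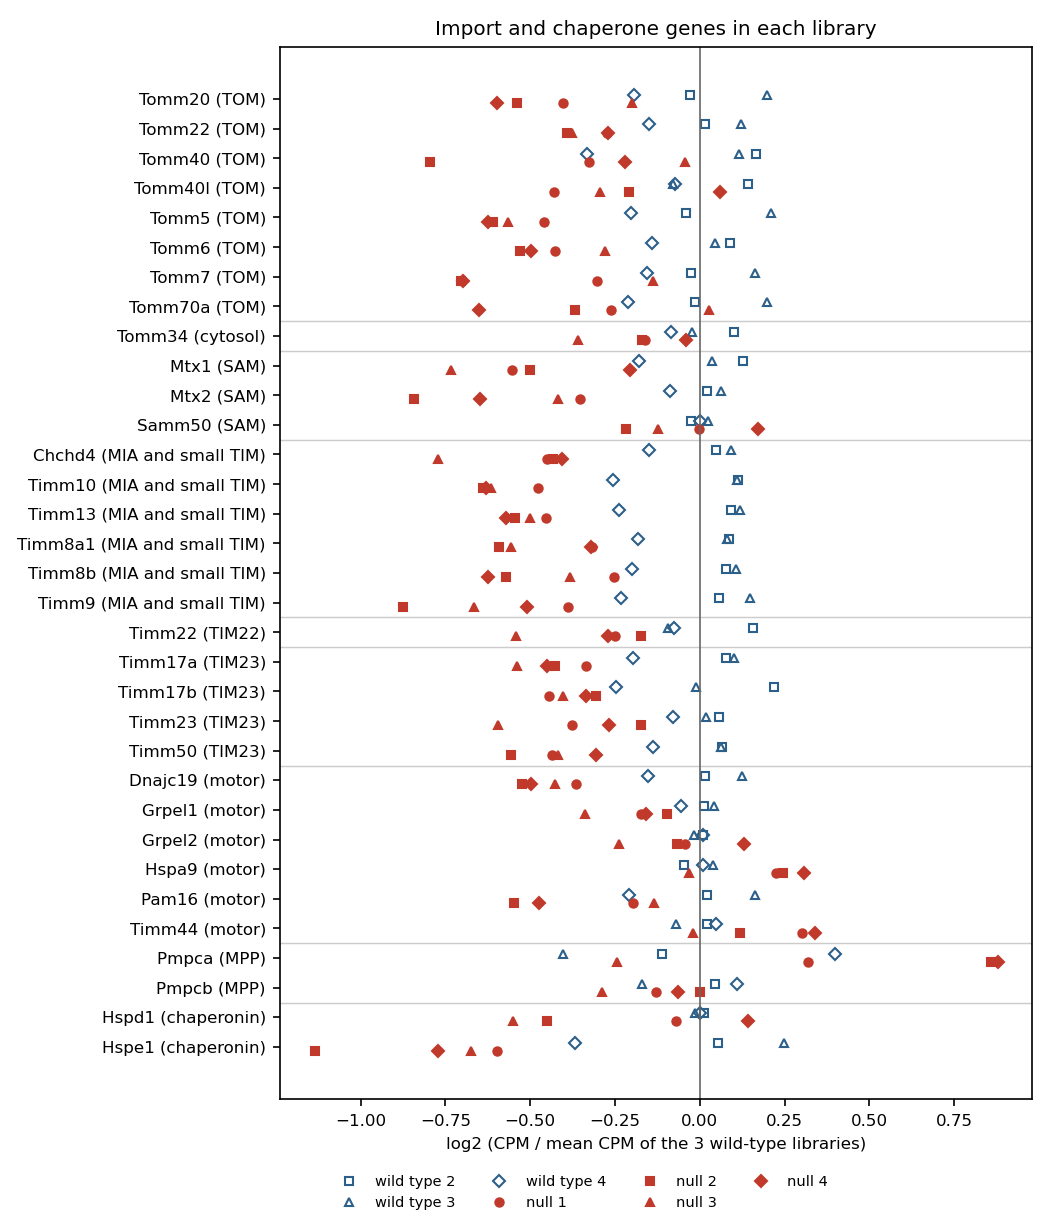
Level of each of the 33 tested genes in each library, as log2 of its CPM over the mean CPM of the 3 wild-type libraries (horizontal axis), grouped by role in import (vertical axis); filled red symbols are the 4 null libraries and open blue symbols the 3 wild-type libraries. Red symbols lie left of all blue symbols for 20 genes, and the library medians over the 33 genes are -0.33, -0.45, -0.38 and -0.32 in null and 0.05, 0.06 and -0.15 in wild type.

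The shift was shared by the libraries of a group. Together the 34 genes took 0.585%, 0.521%, 0.515% and 0.593% of the reads in null pools 1 to 4, against 0.711%, 0.733% and 0.638% in wild-type pools 2 to 4. Every null pool was below every wild-type pool. Among the wild-type pools, number 4 was nearest to the null ones and gave the lowest CPM for 24 of the 33 genes, while pool 3 gave the highest for 17.

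The start-site windows of the 5 genes that fell are shown because these genes were lower together; 3 of them act in the intermembrane space, 1 in the TOM complex and 1 in the chaperonin. Each runs from 250 bases before to 50 after the RefSeq start of the gene in build GRCm38.p6, 5′ to 3′ on the gene's own strand, whereas the reads were counted on build mm9. They lie at chr1:55087898-55088197 on the plus strand for Hspe1, chr2:84826771-84827070 on the plus strand for Timm10, chr4:45108064-45108363 on the minus strand for Tomm5, chr10:80900920-80901219 on the minus strand for Timm13 and chr6:91473374-91473673 on the minus strand for Chchd4. Capitals mark matches to the ETS core, the NRF1 motif and the heat shock element, which were searched on both strands and may overlap.
Hspe1: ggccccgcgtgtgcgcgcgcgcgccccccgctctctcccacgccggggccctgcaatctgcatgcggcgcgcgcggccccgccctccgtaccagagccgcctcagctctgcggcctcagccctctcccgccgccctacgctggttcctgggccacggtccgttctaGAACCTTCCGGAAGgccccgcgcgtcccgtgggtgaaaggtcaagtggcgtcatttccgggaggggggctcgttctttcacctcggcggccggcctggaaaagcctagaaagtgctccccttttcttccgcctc
Timm10: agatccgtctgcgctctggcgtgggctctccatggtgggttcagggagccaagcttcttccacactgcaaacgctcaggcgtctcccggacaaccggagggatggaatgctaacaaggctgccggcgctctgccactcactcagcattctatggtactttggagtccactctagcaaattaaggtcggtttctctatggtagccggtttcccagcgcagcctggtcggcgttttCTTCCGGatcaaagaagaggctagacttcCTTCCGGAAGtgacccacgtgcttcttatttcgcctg
Tomm5: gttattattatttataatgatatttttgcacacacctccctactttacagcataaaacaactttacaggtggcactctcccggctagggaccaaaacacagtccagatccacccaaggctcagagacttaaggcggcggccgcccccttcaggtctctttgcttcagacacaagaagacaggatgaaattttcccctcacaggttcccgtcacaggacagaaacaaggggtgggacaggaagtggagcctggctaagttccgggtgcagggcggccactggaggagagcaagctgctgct
Timm13: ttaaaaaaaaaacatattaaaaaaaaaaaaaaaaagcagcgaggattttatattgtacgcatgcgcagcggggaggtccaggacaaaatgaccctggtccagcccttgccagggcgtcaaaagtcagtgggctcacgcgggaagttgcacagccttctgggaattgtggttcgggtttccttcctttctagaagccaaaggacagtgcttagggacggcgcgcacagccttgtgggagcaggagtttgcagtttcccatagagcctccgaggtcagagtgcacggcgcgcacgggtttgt
Chchd4: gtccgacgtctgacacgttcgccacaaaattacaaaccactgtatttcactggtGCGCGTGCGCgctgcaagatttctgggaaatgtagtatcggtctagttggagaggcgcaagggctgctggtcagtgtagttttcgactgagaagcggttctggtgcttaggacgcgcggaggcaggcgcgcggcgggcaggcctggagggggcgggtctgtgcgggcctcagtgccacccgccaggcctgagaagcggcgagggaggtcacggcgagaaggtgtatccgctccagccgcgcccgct

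The windows of the 5 genes had no motif in common among the 6 searched. In the Hspe1 window a heat shock element starting at -84 from the start site ran into ETS cores on both strands at -80 and -77. Timm10 had 3 ETS cores, at -16, 13 and 16. Chchd4 had 1 NRF1 match at -196, and no searched motif was found in the Tomm5 and Timm13 windows. The Hspe1 window is also the start region of Hspd1, its partner on the other strand: an Hspd1 window at chr1:55087883-55088182 on the minus strand shares 285 of its bases.

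RefSeq windows were found for 30 of the 34 genes, 33 windows in all, and not for Grpel2, Hspa9, Tomm40l and Tomm7. The ETS core CCGGAAG, bound by the mitochondrial biogenesis factor GABPA among others, was in 14 of the 33 windows (42.4%) and in 8.86% of all 32851 windows. The NRF1 motif was in 5 windows (15.2%) against 4.6% of all. YY1's motif AAGATGGCG was in 2 windows (6.06%) against 1.4%, and the heat shock element GAANNTTC in 3 (9.09%) against 7.86%. An ATF4 element, TGATGNAA, was in 0 windows against 3.97% of all, and the E-box CATCTG, a sequence that HAND proteins with their partners can bind, was in 5 (15.2%) against 17.2%. A gene can have several windows, and windows can share a site: the 14 windows with an ETS core belong to 13 genes, with 21 distinct sites, the 5 with CATCTG to 4 genes with 4 sites, and the 3 with a heat shock element hold 2 sites, as Hspe1 and Hspd1 share 1. All windows include those of genes silent in the heart, so these shares are descriptions of sequence and not of binding.

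Entry through the outer membrane was represented by 8 tested TOM genes, all with a negative log2 fold change (median -0.39), of which 1 fell. Their summed level was 933, 830, 1014 and 835 CPM in null pools 1 to 4, against 1210, 1331 and 1065 CPM in wild-type pools 2 to 4. The highest null pool was just below the lowest wild-type pool.

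Tomm5, a small subunit that lies against the TOM channel, was the TOM gene that fell. It measured 139, 125, 129 and 124 CPM in null pools 1 to 4 and 186, 222 and 166 CPM in wild-type pools 2 to 4. The null values were close to each other and all below the wild-type ones. By edgeR the log2 fold change was -0.58 (SE 0.143, adjusted p = 0.0338), from 191 ± 27.9 (SD, n = 3) to 129 ± 6.81 CPM (SD, n = 4).

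Tomm6, another small subunit, measured 158, 147, 175 and 150 CPM in null and 226, 219 and 192 CPM in wild-type pools, without overlap. Its log2 fold change of -0.45 did not pass the test (edgeR adjusted p = 0.0709). Of its annotated exon bases, 84.2% are shared with other genes, among them Usp49 and the antisense gene Tomm6os. Because the libraries carry no strand, reads of Tomm6 and of its antisense partner cannot be told apart.

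The channel protein gene Tomm40 was at 28.0, 20.2, 34.0 and 30.1 CPM in null pools and at 39.3, 38.0 and 27.8 CPM in wild-type pools. The groups overlapped, since wild-type pool 4 was below 3 of the null pools, and the log2 fold change was -0.33 (SE 0.205, edgeR adjusted p = 0.343). Among the receptors, which recognise incoming precursors, Tomm20 and Tomm22 did not overlap between groups, with log2 fold changes of -0.44 and -0.35 (edgeR adjusted p = 0.111 and 0.129), whereas Tomm70a did, at -0.31 (0.319). The small subunit Tomm7 had -0.45 and the channel paralog Tomm40l -0.23, both with overlap (adjusted p = 0.15 and 0.367). Tomm40l shares 64.3% of its exon bases with Nr1i3. Tomm20l, a paralog of the receptor Tomm20, had 1 to 8 reads per library (0.0257 to 0.215 CPM), around the floor, so no fold is given. Tomm34, a cytosolic co-chaperone that binds Hsp70 and Hsp90, was at 64.5 ± 5.79 CPM in null and 73.1 ± 4.88 CPM in wild type (log2 difference -0.20, adjusted p = 0.376).

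The SAM complex, which inserts barrel proteins into the outer membrane, had no gene that passed the test, and its parts differed in size of change. Its core gene Samm50 was at 73.0, 63.0, 67.1 and 82.4 CPM in null and 71.9, 74.4 and 73.3 CPM in wild-type pools. The null pools lay on both sides of the wild-type ones, and the log2 fold change was -0.05 (SE 0.139, edgeR adjusted p = 0.856). The metaxin genes Mtx1 and Mtx2, which encode the outer partners of SAM, did not overlap between groups. For Mtx2 the means were 72.7 ± 11 and 107 ± 5.67 CPM in null and wild type, a log2 fold change of -0.56 (SE 0.159, adjusted p = 0.0567). Mtx1 was at 32.7 ± 5.11 against 45.8 ± 4.87 CPM (-0.51, SE 0.154, adjusted p = 0.0716), with 30.1% of its exon bases shared with Thbs3 and a predicted gene.

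The intermembrane space held 3 of the 5 genes that fell. Here Chchd4, the oxidoreductase also called MIA40, traps small cysteine-rich precursors by forming disulfide bonds, and the small TIM proteins, themselves its substrates, escort hydrophobic precursors across the space. All 6 tested genes of the group were negative (median -0.53), and none overlapped between null and wild type. Null pools all below wild-type pools were found for 20 of the 33 import genes and 10.3% of all tested genes. Summed, they gave 614, 535, 549 and 565 CPM in null pools and 845, 860 and 691 CPM in wild-type pools.

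Timm10 was at 50.3, 45.0, 45.7 and 45.3 CPM in null pools 1 to 4 and at 75.8, 75.7 and 58.7 CPM in wild-type pools 2 to 4. Wild-type pool 4 was the lowest of its group and still above every null pool. The log2 fold change was -0.61 (SE 0.145, edgeR adjusted p = 0.0302). Its ring partner Timm9 had the same log2 fold change, -0.61, with a larger error (SE 0.168) and an adjusted p of 0.0516. Timm9 measured 39.4 ± 5.63 CPM in null and 59.7 ± 7.97 CPM in wild type.

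Timm13, which forms a second kind of ring with Timm8a1 or Timm8b, was at 175, 164, 169 and 161 CPM in null pools and 255, 260 and 203 CPM in wild-type pools. The null pools were again tightly grouped below the wild-type ones, with a log2 fold change of -0.54 (SE 0.137, adjusted p = 0.0410 by edgeR). Timm8b was at 127, 102, 116 and 98.2 CPM in null and 160, 163 and 132 CPM in wild-type pools. These did not overlap either, but the log2 fold change of -0.47 did not pass (SE 0.153, edgeR adjusted p = 0.0905). Timm8b shares 15.6% of its exon bases with Nkapd1. Timm8a1, on the X chromosome, was at 134 ± 13.6 CPM in null against 181 ± 18.7 CPM in wild type (-0.46, adjusted p = 0.0762).

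Chchd4 measured 70.8, 71.5, 56.6 and 72.9 CPM in null pools and 99.9, 103 and 87.0 CPM in wild-type pools. Null pool 3 stood below the other null pools, and no null pool reached the lowest wild-type one. Its log2 fold change was -0.53 (SE 0.137, edgeR adjusted p = 0.0429). Scaled by library totals alone, it was -0.51 with an adjusted p of 0.0521, so the call was lost.

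**Figure D2:**
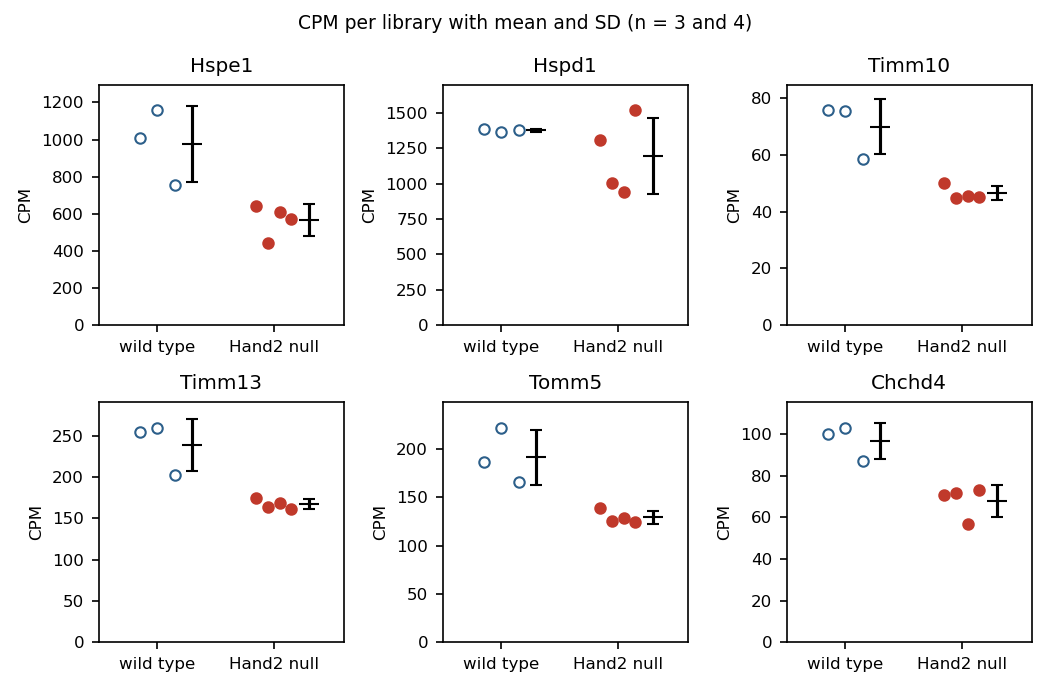
CPM (vertical axes, starting at 0) of the 5 genes that fell and of Hspd1, the chaperonin partner of Hspe1, in the 3 wild-type (open blue) and 4 null libraries (filled red); black bars are the mean and SD. No null point reaches the lowest wild-type point in the panels of the 5 genes, whereas Hspd1 spans 940 to 1518 CPM in null and 1364 to 1387 CPM in wild type.

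No gene of the inner membrane translocases passed the test, although all 5 had lower CPM in every null pool than in any wild-type pool. The same was found for 10.3% of all tested genes. The 4 TIM23 genes had a median log2 fold change of -0.42. Timm22, the channel for carrier proteins, was at 83.1, 87.7, 67.9 and 81.8 CPM in null and 110, 92.6 and 93.8 CPM in wild-type pools. The groups were apart by a narrow margin, with a log2 fold change of -0.32 (SE 0.132, adjusted p = 0.158 by edgeR). Timm23, the channel for presequence proteins, was at 320, 368, 275 and 344 CPM in null and 432, 420 and 393 CPM in wild-type pools, also without overlap (-0.37, SE 0.127, adjusted p = 0.105). The other TIM23 genes stood apart in the same way: the channel subunits Timm17a (-0.46, adjusted p = 0.0625) and Timm17b (-0.39, 0.111), and the receptor Timm50 (-0.44, 0.0759). Timm17a measured 320 ± 18.4 CPM in null and 432 ± 47.7 CPM in wild type.

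The import motor was mixed. Its 6 genes had a median log2 fold change of -0.14, and their summed level was 945 ± 64.6 CPM in null (n = 4) and 950 ± 28.8 CPM in wild type (n = 3). Hspa9, the matrix Hsp70 that drives import, was at 459, 465, 384 and 485 CPM in null and 379, 403 and 394 CPM in wild-type pools. All null pools but number 3 were above every wild-type pool, so the groups overlapped, and the log2 fold change was 0.17 (SE 0.127, edgeR adjusted p = 0.437). Timm44, which tethers Hspa9 to the channel, had 0.18 (SE 0.135, adjusted p = 0.458), at 114 ± 13 against 99.8 ± 4.20 CPM.

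The cofactors of Hspa9 had log2 fold changes below 0. Grpel1, its nucleotide exchange factor, was at 195, 206, 174 and 197 CPM in null and 222, 227 and 212 CPM in wild-type pools, without overlap but with a log2 fold change of only -0.21 (SE 0.119, adjusted p = 0.305 by edgeR). Its paralog Grpel2 overlapped, at 41.9 ± 4.37 against 43.3 ± 0.452 CPM (-0.07, adjusted p = 0.799). Dnajc19, a J-domain protein of the motor, was at 86.9 ± 4.39 in null and 119 ± 11.4 CPM in wild type, without overlap (-0.47, SE 0.134, adjusted p = 0.0596). Pam16, the J-like regulator, overlapped (-0.34, adjusted p = 0.229) and shares 18.7% of its exon bases with Glis2.

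The matrix processing peptidase, which cuts off presequences, had the largest positive value and a large spread. Pmpca, its substrate-binding subunit, was at 132, 191, 89.0 and 194 CPM in null and 97.5, 79.7 and 139 CPM in wild-type pools. Null pool 3 was below 2 of the wild-type pools, and the log2 fold change was 0.50 (SE 0.249, edgeR adjusted p = 0.244). Without null pool 3 it was 0.67 with an adjusted p of 0.0480, so 1 library decided that call. Pmpca shares 20.4% of its exon bases with Inpp5e. The catalytic subunit Pmpcb was at 145, 159, 130 and 152 CPM in null and 164, 141 and 171 CPM in wild-type pools (-0.14, SE 0.125, adjusted p = 0.550), with overlap.

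The chaperonin held the gene with the largest decrease. Hspe1, the HSP10 lid of the folding chamber, was at 644, 443, 610 and 571 CPM in null and 1011, 1158 and 755 CPM in wild-type pools. Null pool 2 was the lowest and wild-type pool 3 the highest, and the groups did not overlap. The mean was 58.2% of wild type, 567 ± 87.8 against 975 ± 204 CPM, with a log2 fold change of -0.80 (SE 0.188, adjusted p = 0.0291 by edgeR).

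Hspd1, the HSP60 chamber itself, was at 1311, 1006, 940 and 1518 CPM in null and 1387, 1364 and 1378 CPM in wild-type pools. The wild-type pools were nearly equal, while the null pools lay on both sides of them; the log2 fold change was -0.22 (SE 0.172, edgeR adjusted p = 0.463). Hspe1 and Hspd1 share 112 annotated exon bases, 7.60% and 4.24% of their exons, and reference names list 6 pseudogenes for Hspe1 and 5 for Hspd1. Reads that fit a gene and a copy equally well are not in the counts.

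Per length, Hspe1 was the most abundant gene of the machinery in wild type, at 1259 ± 264 CPM per kb of transcript, followed by Hspd1 at 568 ± 4.77 CPM per kb. Timm23 came next at 354 ± 17.0 CPM per kb, then Tomm6 (316 ± 26.1), Tomm5 (300 ± 43.7) and Timm8b (292 ± 33.1), also in CPM per kb. From Timm23 to Timm8b each gene differed from its neighbour by less than the larger of their SDs, except that Timm23 and Tomm6 stood further apart. In null libraries the level of Hspe1 was 733 ± 113 CPM per kb and that of Hspd1 493 ± 111 CPM per kb.

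Some of these proteins work as partners, so the ratio of their reads was compared within each library for 6 pairs. The test was a two-sided exact permutation over all 35 assignments of 7 libraries to groups of 4 and 3. The smallest p this design allows is 0.0286, and no pair passed after adjustment over the 6. The ratio of Grpel1 to Hspa9 was 0.426, 0.444, 0.454 and 0.406 in null and 0.585, 0.563 and 0.538 in wild-type pools. It was lower in 4 of 4 null pools than in any wild-type pool (exact permutation p = 0.0286, adjusted 0.1713).

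Timm44 to Timm23 went the other way, with 0.385, 0.294, 0.358 and 0.367 in null and 0.234, 0.226 and 0.262 in wild-type pools. All 4 null pools were higher than any wild-type pool (exact permutation p = 0.0571, adjusted 0.1713). The groups overlapped for Hspe1 to Hspd1, at 0.489 ± 0.117 in null against 0.709 ± 0.152 in wild type, and for Pmpca to Pmpcb, at 1.02 ± 0.274 against 0.657 ± 0.134 (exact permutation p = 0.1143 and adjusted 0.1714 for each).

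The ring partners kept close ratios. Timm9 to Timm10 was 0.845 ± 0.0928 in null and 0.853 ± 0.0302 in wild type (exact permutation p = 0.9429, adjusted 0.9429), and Timm8a1 to Timm13 was 0.799 ± 0.0829 and 0.760 ± 0.0251 (exact permutation p = 0.5429, adjusted 0.6515). A p of this size does not show that the ratios were equal.

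**Figure D3:**
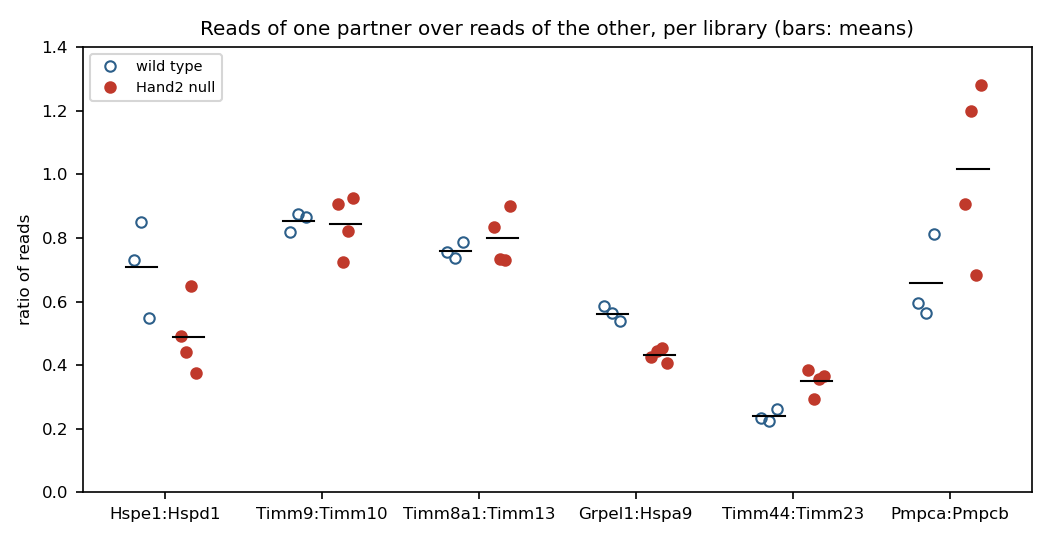
Reads of the first gene over reads of the second (vertical axis, a ratio without unit) in each library for 6 pairs of partners; open blue points are the 3 wild-type and filled red points the 4 null libraries, and bars are group means. The groups are apart for Grpel1:Hspa9 (null 0.406 to 0.454, wild type 0.538 to 0.585) and Timm44:Timm23 (null 0.294 to 0.385, wild type 0.226 to 0.262) and overlap in the other 4 pairs.

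The size of the change followed the length of the coding sequence. All 5 genes that fell have coding sequences of at most 417 nt (median 285 nt). Coding sequences under 500 nt belonged to 14 of the 33 genes, and all 14 had negative log2 fold changes, with a median of -0.47. Across the 33 genes the Spearman correlation of log2 fold change with coding length was 0.73, and with transcript length 0.53. All genes come from the same 7 libraries, so these are descriptions.

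Other genes also differed by coding length. Of 1155 other tested genes with coding sequences under 500 nt, 7.53% were called lower and the median log2 fold change was -0.24. The median was -0.08 from 500 to 1000 nt, where 9 import genes had a median of -0.32, and 0.05 from 1000 to 1500 nt, where 6 had -0.23. From 1500 to 2000 nt it was 0.10, and the 3 import genes there, Hspd1, Pmpca and Tomm70a, had a median of -0.22. Hspa9, with 2037 nt, had 0.17 beside a median of 0.14 in its length class, from 2000 to 3000 nt. Longer classes, which hold no import gene, had smaller medians, 0.10 from 3000 to 5000 nt (1265 genes) and 0.06 above (574 genes). Over 13461 genes with a coding length the Spearman correlation was 0.22. Reads in genes with coding sequences under 500 nt made up 17.2% to 19.8% of null and 21.7% to 23.2% of wild-type libraries.

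When each library was corrected for a smooth trend with coding length, the median of the 33 genes was -0.22. Of the 33, 1 gene, Mtx1, was called lower (log2 fold change -0.59, edgeR adjusted p = 0.0429), beside 235 of all 14290 tested genes. None of the 5 genes kept its call: Hspe1 had -0.54 (adjusted p = 0.0590), Timm10 -0.33 (0.15), Chchd4 -0.32 (0.194), Timm13 -0.26 (0.191) and Tomm5 -0.21 (0.326). With transcript length in place of coding length, Chchd4 (-0.62, edgeR adjusted p = 0.0185), Mtx2 (-0.64, 0.0476) and Timm17a (-0.51, 0.0461) were called lower, and the median was -0.30. That fit called 301 of all 14290 tested genes lower. Both corrections were chosen after the data had been seen.

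**Figure D4:**
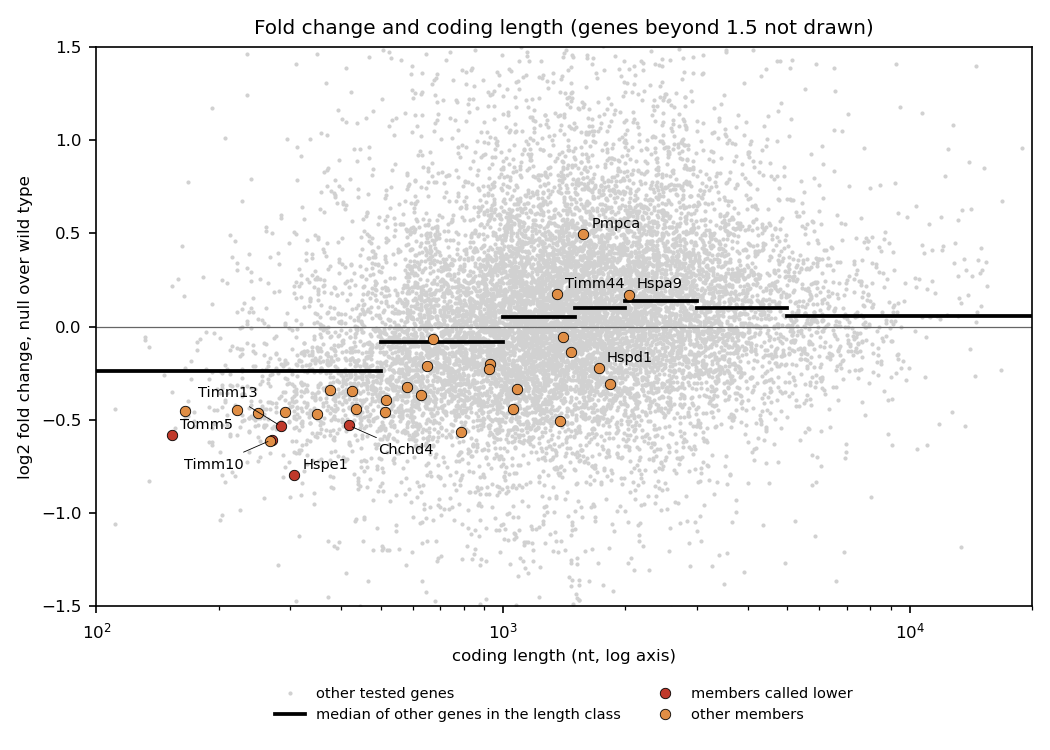
Log2 fold change of null over wild type (vertical axis) against coding length in nt (horizontal log axis) for all tested genes with a coding length; red points are the 5 import genes that fell, orange points the other 28 and grey dots all other genes, with black bars for the median of the other genes in each length class. The black bars climb from -0.24 under 500 nt to 0.14 at 2000 to 3000 nt and come back to 0.06 above 5000 nt, and all red points lie at or under 417 nt.

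The calls depended on single libraries. With 1 library left out at a time, the number of import genes called lower was 0 without null pool 1, null pool 2, wild-type pool 2 or wild-type pool 3, 4 without null pool 4, 6 without wild-type pool 4 and 11 without null pool 3. Calls lower over all tested genes moved too: in the same order they numbered 90, 150, 46, 68, 287, 276 and 652, against 305 with all libraries. Hspe1, Timm10 and Chchd4 were each called in 3 of these 7 fits, and Tomm5 and Timm13 in 2. Leaving out a library also takes a replicate from the test. The log2 fold change of Hspe1 ranged from -0.96 to -0.64 over the 7 fits and that of Timm10 from -0.73 to -0.53. With all libraries, DESeq2 called 15 of the 33 lower (45.5%), beside 5.91% of the 13727 genes to which it gave an adjusted p.

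Genes that work beside the import machinery, not all of them separate from it, were less uniform. Of 62 genes in 8 lists, 61 were tested, Timmdc1 having no row under that symbol. Their median log2 fold change was -0.06, 33 of the 61 were negative, 1 fell and 1 rose. Among all tested genes 2.13% were called lower and 4.11% higher, so the 61 genes were not called more often than others. Slc25a5, the ADP/ATP carrier ANT2, whose precursor enters through TIM22, fell from 2804, 2542 and 2527 CPM in wild-type to 2002, 1833, 1528 and 2075 CPM in null pools, without overlap (log2 fold change -0.52, SE 0.14, edgeR adjusted p = 0.0496). Its call was lost with any 1 library left out (adjusted p 0.0522 to 0.220).

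Ddit3, which encodes the stress transcription factor CHOP, rose from 10.7, 10.8 and 12.0 CPM in wild-type to 33.2, 24.4, 32.4 and 15.0 CPM in null pools. Null pool 4 was nearest to wild type, and the groups did not overlap (log2 fold change 1.22, SE 0.261, edgeR adjusted p = 0.0180). It was called in 4 of the 7 fits with a library left out, with adjusted p from 0.000908 to 0.0996. Its list of 11 regulators of mitochondrial stress and biogenesis had a median of 0.24 and no other call. Atf4, which acts upstream of Ddit3, had 0.32 (adjusted p = 0.299), Atf5 -0.25 (0.684), and Nrf1 and Gabpa, factors that drive nuclear genes for mitochondria, 0.24 (0.520) and 0.06 (0.842). Myc (0.61, edgeR adjusted p = 0.0572) and the coactivators of mitochondrial biogenesis Ppargc1a (0.34, 0.180) and Ppargc1b (0.36, 0.185) did not pass either. These genes had higher CPM in every null pool than in any wild-type pool, as did 11.6% of all tested genes. Tfam (-0.11), Pprc1 (-0.3) and Esrra (-0.41), also of this list, were negative and overlapped between groups.

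The other lists had no call. Inner membrane insertion and assembly had the lowest median, -0.43 over 7 genes, with 6 negative. Its most abundant gene, Romo1, was at 132 ± 18.9 CPM in null and 193 ± 22.6 CPM in wild type (log2 difference -0.57, edgeR adjusted p = 0.0550). It also holds Dnajc15 (-0.5, adjusted p = 0.0759) and Timm10b, which the files list under the older symbol Fxc1 and which the symbol rule therefore missed (-0.43, adjusted p = 0.0973, without overlap). The median of this list therefore includes the import machinery itself, with Timm10b at least, and the list is not separate from that machinery. Quality-control proteases and prohibitins had a median of -0.18 over 11 genes, where the prohibitin gene Phb, the most abundant, had -0.20 (adjusted p = 0.371).

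The 4 presequence and intermediate peptidases had a median of -0.05, with Immp1l, an inner membrane peptidase subunit, at -0.27 (edgeR adjusted p = 0.346). The 8 genes of the system that organises cristae also had a median of -0.05, with Minos1, its most abundant, at -0.50 (adjusted p = 0.0759). The 9 cytosolic chaperones that carry precursors had -0.06, with Hspa8, the constitutive Hsp70, at 0.15 (adjusted p = 0.724). The 4 other mitochondrial chaperones had 0.08, and 2 of them were negative. Hscb, a J protein of iron-sulfur cluster assembly and the most abundant per length, was at 0.25 (adjusted p = 0.453). The 7 outer membrane channels and carriers had 0.05, Slc25a5 included.

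Markers of the cell types in the dissected tissue also differed between groups. Summed heart muscle markers were at 32436 to 38355 CPM in null and 31067 to 35367 CPM in wild type, with 1 of 8 (Myh7) called higher. Endothelial and endocardial markers summed to 344 to 413 against 230 to 253 CPM, with 3 of 6 (Pecam1, Kdr and Tie1) called higher, and foregut endoderm markers to 139 to 184 against 84.8 to 116 CPM, with Krt8 called higher and Epcam, Cdh1, Foxa2 and Sox2 each at 4.88 CPM or less in every library. Cushion mesenchyme markers overlapped, at 749 to 1162 against 928 to 1100 CPM, with 3 of 6 (Postn, Twist1 and Sox9) called lower. Most of that sum was Vim, at 668 to 1048 CPM in null and 792 to 833 CPM in wild type. Null means of Postn, Twist1 and Sox9 were 24.4%, 23.5% and 41.7% of wild type, and those of Prrx2, Pdgfra and Vim 78.5%, 137% and 106%. Epicardial markers overlapped at 56.0 to 68.6 against 40.0 to 59.0 CPM, with 0 of 4 called by edgeR.

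Red blood cell markers overlapped at 5602 to 14510 CPM in null and 9329 to 22038 CPM in wild type, highest in wild-type pool 4 and, within the null group, in pool 2; Hba-a1 and Hba-a2 were at 0 in every library. White blood cell markers were low, at 6.52 to 10 against 11.8 to 12.3 CPM. Lyz2 alone was called lower, from 10.1 ± 0.249 to 5.66 ± 0.952 CPM, while the null means of Ptprc, Cd68 and Csf1r were 110%, 102% and 125% of wild type. The part of these differences in the lower import transcripts was not tested. With null pool 2 and wild-type pool 4, the pools with most globin reads in their groups, both left out, 1 import gene, Hspe1, was called lower. The median of the 33 was -0.45, and 123 of all 14493 genes tested in that fit were called lower.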

How the data were processed

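The authors deposited read counts per gene, whole numbers for 23284 gene symbols in 7 libraries. Alignment and counting used TopHat2 2.0.13, SAMtools and HTSeq on mouse build mm9, per the submitters' processing notes. Which annotation and options were used is not given in the sources. Per the labels' protocols, libraries from rRNA-depleted RNA were amplified with 8 PCR cycles after SMARTer low-input cDNA synthesis, and 50-nt single reads were sequenced without strand information. Each deposited file ends in 5 summary lines, which were not used as genes; of all counted reads, 7.31% to 14.21% fell in no gene.

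CPM (counts-per-million units) is relative to the reads in genes. Log2 fold changes come from edgeR 4.0.16 (R 4.3.3): quasi-likelihood F test, TMM normalization, default filter with minimum count 10, genotype as the only term, all 7 libraries, 5 residual degrees of freedom, Benjamini-Hochberg adjustment over 14290 genes, calls at 0.05. SE is the absolute log2 fold change over the square root of F. DESeq2 1.42.0, other scalings and filters, left-out libraries, a replicate block and length offsets were alternatives. Transcript and coding lengths and exon overlaps came from GENCODE for GRCm38, with 20882 symbols matched directly, 1942 by synonym and 460 unmatched. Motifs were searched in RefSeq windows: the NRF1 motif is GCGC, any base, then TGCGC. The scripts were tested on simulated counts.

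The members, pathway lists and markers were chosen with earlier results of these data known. Every member is named. Called members, the 6 most abundant per length and main partners of each role have values per library. Of each pathway list, the called genes or the most abundant one per length are named. Members named beyond this, and Atf4, Atf5, Nrf1, Gabpa, Myc, Ppargc1a, Ppargc1b, Tfam, Pprc1, Esrra, Dnajc15 and Fxc1, were added after their values were seen.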

Additional observations from a re-analysis of the deposited data

Results flagged for a closer look

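In the null group of 4 libraries, the value farthest from the others was compared with the group's whole range by Dixon's criterion at the 95% level. Chchd4 was at 56.6 CPM in null pool 3, a gap of 0.866 of the range below the next null pool. Timm10 was at 50.3 CPM in null pool 1, a gap of 0.866 of the range above the next. Chance gives about 1 such value in 20 groups, and 33 import genes were tested, so a few such values can arise by chance. Both values lay below the lowest wild-type pool.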

How the results depend on the processing

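No called result changed direction under any alternative run. With all libraries 892 genes were called; DESeq2 called 1826, the replicate block 1379, the fits without 1 library 256 to 1598, and the fit that dropped both null 2 and wild type 4 called 421. Of the calls, 34.2% were lower, against 44.4% with DESeq2 and 18.0% to 40.8% without 1 library (lowest when wild type 2 was dropped, then 21.7% when wild type 3 was). The 5 import genes called lower became 9 with upper-quartile scaling, 15 with DESeq2, 12 with the replicate block, 0 to 11 without 1 library, 1 with null 2 and wild type 4 dropped, 3 with the transcript length offset and 1 with the coding length offset. Calls lower over all tested genes were 305 in the main fit, 375 with upper-quartile scaling, 811 with DESeq2 and 565 with the replicate block. They were 46 to 652 without 1 library, 123 with both dropped, and 301 and 235 with the transcript and coding length offsets. DESeq2, the block and upper-quartile scaling kept all 5 import genes. The 0 called higher became 0 to 1 without 1 library (Pmpca, without null replicate 3). The median of -0.39 was -0.52 to -0.35 without 1 library, -0.30 with the transcript and -0.22 with the coding length offset. The cause was not tested. RLE scaling called 6 lower, library totals alone 6 (without Chchd4), no low-count filter 5 and a minimum count of 50 called 7. In the same order, these runs called 349, 288, 292 and 345 of all tested genes lower. No scaling moved the median of all genes beyond 0.00 to 0.04.

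The block pairs libraries 2, 3 and 4 by number. Deviations of same-numbered libraries correlated at -0.07, 0.26 and 0.17. Null 3 and null 4 each correlated best with the wild-type library of the same number, whereas null 2 correlated best with wild type 4 (0.14). Whether same-numbered libraries share more than a number was not tested. Without 1 library, each partner ratio kept its direction except Timm9:Timm10, which lies near equality. Depth limited only Tomm20l, which lay around the floor; the 33 tested genes had at least 20.2 CPM in every library.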
